A study of Homo sapiens with 6 samples.

Results

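The MYC, MAX and MXD network was described here in human HEK293 cells, an established embryonic kidney line. It was represented by 10 genes: MYC, MYCN, MYCL, MAX, MXD1, MXI1, MXD3, MXD4, MNT and MGA. Every probe set that the platform annotation assigns to exactly 1 of these genes was taken, which gave 24 probe sets of 9 genes, among 41751 probe sets and 18338 genes in all. For MXD4 the annotation lists 3 probe sets, each shared with a microRNA gene, so MXD4 had none by this rule and is not analysed here. The arrays compared 3 samples of a line stably transfected with a myocilin vector and 3 samples of a line stably transfected with a control vector. Both are Tet-On lines, in which doxycycline switches the inserted gene on, kept under hygromycin B and G418. The labels' protocols, alike for all samples, describe 48 h of doxycycline at 0.2 or 1 µg/ml and do not tie a dose to an array. Doxycycline is mentioned in the description of the myocilin samples alone, and a difference in drug exposure was not tested. Clones and separate cultures are not named either. The p-values therefore rest on variation among 3 samples per line that may be technical, and an effect of myocilin cannot be told apart from other differences between the lines. The series title asks about proliferation, survival and the ERK pathway, a kinase cascade whose targets include MYC.

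MYC, MYCN and MYCL are basic helix-loop-helix leucine zipper transcription factors that bind DNA only as pairs with MAX. The pairs recognise the E-box CACGTG and raise transcription of genes for ribosome production, metabolism and cell division. The MXD proteins, MXI1 among them, and MNT and MGA also pair with MAX and occupy the same sites, where MXD and MNT proteins recruit SIN3 and histone deacetylases and lower transcription. In many tissues MYC dominates in dividing cells and MXD proteins in cells that leave the cycle.

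Values are the authors' deposited centred log2 values, so they show differences between arrays and no absolute level. Whether a transcript lay above background could not be read from them, and the markers of the cell line could not be checked for presence. MYOC, the induced gene, read 0.21, 0.20 and 0.24 on the myocilin arrays, against -6.71, -8.32 and -8.29 on the control arrays, so by MYOC each array matched its label. The difference was 7.99 on this scale and 4.97 after quantile normalisation, so its size depends on the scaling. Across all probe sets the arrays correlated at 0.513 to 0.608 within the myocilin line and at 0.409 to 0.464 within the control line. Between the lines they correlated at -0.244 to -0.0052. The MYOC values do not centre on 0 over these 6 arrays, so the reference that the authors centred on is unknown. Centring of each probe set can by itself lower correlations between groups, so these correlations do not measure how alike the lines are.

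MYC and MXI1 were the 2 member genes that changed, and both were higher in the myocilin line. The other 7 measured genes, MYCN, MYCL, MAX, MXD1, MXD3, MNT and MGA, did not pass the threshold, an adjusted p of 0.05 in limma over all genes. Of all genes tested, 15.6% were called, 8.28% higher and 7.35% lower. Groups did not overlap for 5 of the 9 member genes, against 34.9% of all genes. The median log2 difference over the member genes was 0.10, and 0.02 over all genes.

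**Figure D1:**
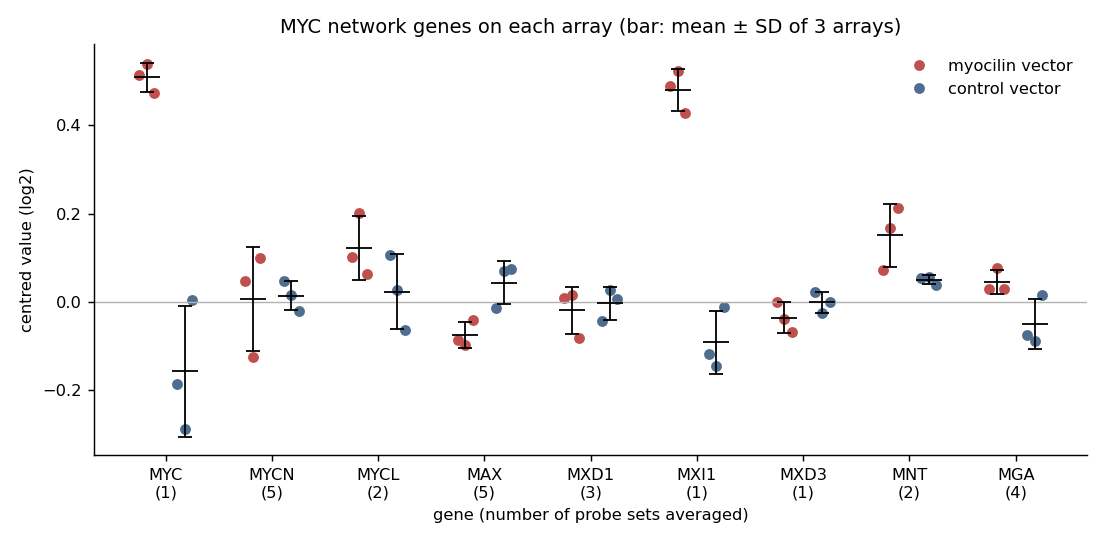
Centred log2 value of each MYC network gene on each array, with myocilin arrays to the left of control arrays; points are arrays, bars the mean ± SD of 3 arrays, and the number of probe sets averaged is given under each gene. MYC and MXI1 stand between 0.43 and 0.54 on the myocilin arrays and at or below 0.003 on every control array, while the other genes stay within 0.22 of 0 on every array.

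Among the MYC family, MYC itself was measured by 1 probe set, 202431_s_at. It read 0.52, 0.54 and 0.47 on the myocilin arrays, against -0.19, -0.29 and 0.003 on the control arrays. All myocilin arrays were higher than all control arrays, and the control arrays were spread more widely. The means were 0.51 ± 0.03 in the myocilin line and -0.16 ± 0.15 in the control line (SD, n = 3 each). The log2 difference was 0.67 ± 0.08 (SE), or 1.59-fold, with a 95% interval of 0.49 to 0.84 (limma adjusted p = 0.000836). In these bulk samples, a change in the number of cells that carry the transcript and a change per cell cannot be told apart.

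MYCN, the paralogue of neural and embryonic tissue, did not pass the threshold. Averaged over 5 probe sets, it read 0.05, -0.13 and 0.10 on the myocilin arrays, against 0.05, 0.02 and -0.02 on the control arrays. The difference was -0.01 with an interval of -0.16 to 0.15 (limma adjusted p = 0.96). Its probe sets ranged from -0.18 to 0.25 in their differences, and the highest of them, 234376_at, read 0.43, -0.11 and 0.21 in the myocilin line, against -0.06, -0.07 and -0.08 in the control line. The second myocilin array was thus below every control array for this probe set. MYCL, the paralogue first found amplified in lung cancer, averaged 0.12 ± 0.07 over 2 probe sets in the myocilin line and 0.02 ± 0.09 in the control line (SD, n = 3 each). Its groups overlapped, and the difference of 0.10 had an interval of -0.05 to 0.25 (limma adjusted p = 0.36).

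MAX, the shared partner, was read by 5 probe sets that went in both directions. Probe set 209331_s_at was lower on all myocilin arrays, at -0.16, -0.22 and -0.26, against 0.07, 0.12 and 0 on the control arrays. It fell by 0.28 on the log2 scale with a standard error of 0.07 (limma adjusted p = 0.0356 over all probe sets). The call ended when any 1 of the 6 arrays was left out (adjusted p = 0.0557 to 0.102). The other probe sets differed by -0.26, -0.13, -0.08 and 0.15, none past the threshold. A difference between these probe sets was not tested. As a gene, MAX averaged -0.08 ± 0.03 in the myocilin line and 0.04 ± 0.05 in the control line (SD, n = 3 each). The difference of -0.12 had an interval of -0.24 to 0.01 (limma adjusted p = 0.191), and turned to 0.15 where 214108_at was the only probe set left.

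**Figure D2:**
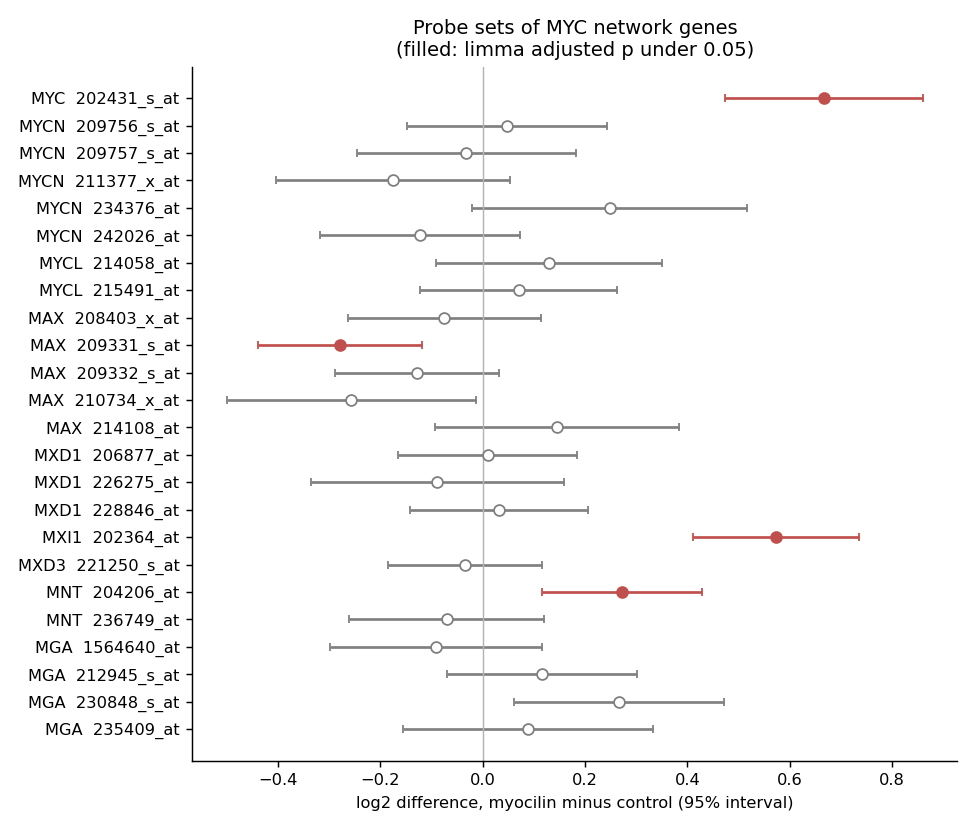
Log2 difference, myocilin minus control, of each of the 24 member probe sets on the x axis, with its 95% interval from limma; filled points passed the threshold over all probe sets. The 4 filled points are the probe sets of MYC and MXI1 and 1 of MNT, above 0, and 1 of MAX, below 0, and the other 20 are open.

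Counted by probe set, 3 of the 24 rose, 1 fell and 20 did not pass. Over all 41751 probe sets 11.0% were called, 5.46% higher and 5.56% lower. Groups did not overlap for 6 of the 24, against 30.4% of all probe sets. The standard errors, from samples that may be technical replicates, ran from 0.07 to 0.12. Changes of the size seen for MXI1 and MYC were large beside them, and changes near 0.1 were not.

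Of the MXD repressors, MXI1 rose. Its probe set 202364_at read 0.49, 0.52 and 0.43 on the myocilin arrays, against -0.12, -0.15 and -0.01 on the control arrays. The groups were far apart and each was tight, with means of 0.48 ± 0.05 in the myocilin line and -0.09 ± 0.07 in the control line (SD, n = 3 each). The log2 difference was 0.57 ± 0.06 (SE), or 1.49-fold, with an interval of 0.44 to 0.71 (limma adjusted p = 0.000547). MXD1, the founding member of the family, averaged -0.02 ± 0.05 over 3 probe sets in the myocilin line and -0.004 ± 0.04 in the control line (SD, n = 3 each). That difference, -0.02, had an interval of -0.14 to 0.11 (limma adjusted p = 0.889). MXD3, which in mice is expressed in proliferating progenitors, read 0, -0.04 and -0.07 in the myocilin line, against 0.02, -0.03 and 0 in the control line. It differed by -0.03 with an interval of -0.16 to 0.09 (limma adjusted p = 0.718). MXI1 was therefore the member of this class that moved past the threshold, among the 3 that were measured.

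MNT, a broadly expressed repressor, gave different readings from its 2 probe sets. Probe set 204206_at read 0.25, 0.35 and 0.24 on the myocilin arrays, against -0.01, 0.03 and 0.01 on the control arrays. It rose by 0.27 ± 0.07 (log2, SE, limma adjusted p = 0.0348 over all probe sets), and this call ended when any 1 array was left out (adjusted p = 0.0632 to 0.115). The other, 236749_at, read -0.10, -0.02 and 0.18 in the myocilin line, against 0.12, 0.08 and 0.06 in the control line, with overlapping groups. As a gene, MNT differed by 0.10 with an interval of -0.03 to 0.23 (limma adjusted p = 0.284). The promoter window of MNT, 250 bases before to 50 after its RefSeq start site (GRCh38.p14), is shown because MNT is a member with a changed probe set whose window holds the E-box, in capitals, which begins 193 bases before the start site:

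MNT (chr17:2401011-2401310, minus strand): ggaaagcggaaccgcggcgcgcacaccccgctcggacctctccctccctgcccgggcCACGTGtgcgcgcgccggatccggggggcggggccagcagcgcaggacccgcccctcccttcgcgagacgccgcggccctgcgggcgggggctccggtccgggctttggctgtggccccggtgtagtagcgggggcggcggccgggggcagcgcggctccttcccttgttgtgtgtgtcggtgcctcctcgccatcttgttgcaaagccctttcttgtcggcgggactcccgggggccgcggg

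The motif CACGTG reads the same on both strands and was counted wherever it occurred. It was in 7.26% of 35116 RefSeq promoter windows of this length. Of the member genes with a window in the table, MNT and MXD4 held it, while the windows of MXI1, at 3 start sites, and of MAX, at 2, had no match. The promoter of MYC was not analysed here.

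MGA, the largest of these proteins and the scaffold of the Polycomb complex PRC1.6, averaged 0.04 ± 0.03 over 4 probe sets in the myocilin line and -0.05 ± 0.06 in the control line (SD, n = 3 each). The groups did not overlap, and the difference of 0.10 had an interval of -0.03 to 0.22 (limma adjusted p = 0.303). One of its probe sets, 230848_s_at, read 0.09, 0.13 and 0.12 on the myocilin arrays, against -0.18, -0.31 and 0.03 on the control arrays. Its difference of 0.27 missed the threshold (limma adjusted p = 0.0997).

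MYC was set against each of the other 8 genes within each array, which asks whether the members changed unequally. MYC minus MAX was 0.60, 0.64 and 0.51 on the myocilin arrays, against -0.17, -0.36 and -0.07 on the control arrays. The line difference was 0.79. MYC minus MXI1 was 0.03, 0.01 and 0.04 on the myocilin arrays, against -0.07, -0.14 and 0.02 on the control arrays, where the groups overlapped. That line difference was 0.09, so the rise of MXI1 was nearly as large as that of MYC. For the 7 genes other than MXI1 the difference was 0.57 to 0.79, with no overlap between groups. These 7 genes themselves differed by -0.12 to 0.10, so the pair differences largely restate the rise of MYC, 0.67. With 20 possible regroupings an exact two-sided permutation test cannot go below p = 0.1, the value reached for these 7 pairs (adjusted over 8 pairs, 0.114), and for MXI1 it was 0.2.

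By likeness to MYC over the 6 arrays, measured as the root mean square distance of values centred on each gene's own mean, MXI1 ranked 9 of 18337 genes at 0.07. The next member, MGA, ranked 3745. The 5 most similar genes were PPL, which encodes periplakin, CUTC, NEFH, which encodes the heavy neurofilament chain, TUBB2A and SNAPC4. Their distances were 0.02 to 0.06 and their log2 differences 0.63 to 0.72. All 5 also rose, so the ranking lists genes with a difference of about the same size as that of MYC.

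MYC and MXI1 differed in what lay around them. MYC is on chromosome 8, and of its 20 nearest measured genes, 10 on each side, 1 rose and 0 fell, with a median of 0.05. The gene that rose was MTSS1, the most distant on its side, at 0.26, which read -0.04 with _x_at and _s_at probe sets omitted. The adjacent noncoding genes PVT1 and CASC11 read 0.01 and 0.04. MXI1 is on chromosome 10, and of its 20 nearest genes 8 rose and 2 fell, with a median of 0.14. Among them were DUSP5, an ERK phosphatase, at 0.59, ITPRIP at 0.54 and PDCD4-AS1 at -0.75. On chromosome 10 as a whole 21.3% of genes rose, against 11.7% on chromosome 8 and 8.28% of all genes. With the median of the 20 neighbours subtracted on each array, an alternative chosen after seeing the data, MXI1 differed by 0.46 ± 0.07 (limma adjusted p = 0.00279) and MYC by 0.64 ± 0.08 (limma adjusted p = 0.000834).

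**Figure D3:**
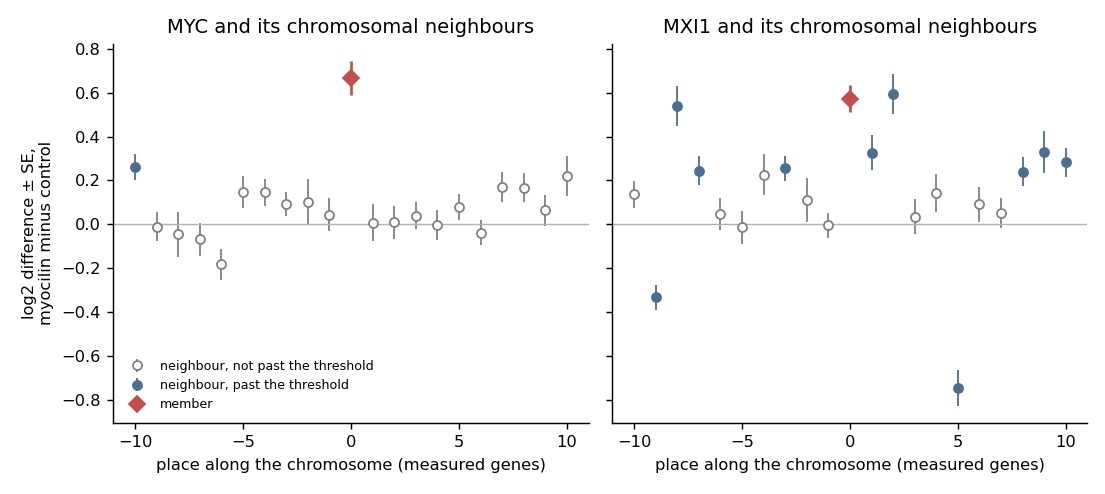
Log2 difference ± SE, myocilin minus control, of MYC (left) and MXI1 (right), drawn as diamonds at place 0, and of the 10 nearest measured genes on each side, in chromosomal order on the x axis. MYC stands above all of its neighbours, and filled points, which passed the threshold, number 1 around MYC and 10 around MXI1.

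MXD and MNT factors act through recruited corepressors. Of 10 measured corepressor genes, including SIN3, deacetylase and associated subunits, 0 rose and 0 fell in limma (3 had an unadjusted p under 0.05), with a median of -0.09. With 15.6% of all genes called, a count of 0 among 10 is not a result about this list. In the parallel MLX branch, MLX is the MAX-like partner of the glucose-sensing factors MLXIP (MondoA) and MLXIPL (ChREBP), and TXNIP and ARRDC4 are their best-known targets. Of the 5 genes measured in this branch, 0 rose and 2 fell, 40% against 7.35% of all genes, with a median of -0.07. With so few genes this share is not read as a result about the branch. The genes that fell were the 2 targets. ARRDC4 read -0.36, -0.29 and -0.47 on the myocilin arrays, against 0.10, 0.47 and 0.14 on the control arrays. Its difference was -0.61 ± 0.10 (log2, SE, limma adjusted p = 0.00391). TXNIP, an arrestin that lowers glucose uptake, read -0.72, -0.73 and -0.39 on the myocilin arrays, against 0, 0.41 and -0.15 on the control arrays, and differed by -0.70 ± 0.14 (limma adjusted p = 0.0105), with all 3 of its probe sets between -0.78 and -0.60. The factors themselves did not pass the threshold, named here although the rule for naming did not select them: MLX at 0.17, MLXIP at -0.07 and MLXIPL at 0.08. With the median of its probe sets in place of their mean, MLX passed (0.19, adjusted p = 0.0462).

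Among the other subunits of PRC1.6, 4 of 9 measured rose, against 8.28% of all genes, and 0 fell, with a median of 0.19. PCGF6, which sets this complex apart from other PRC1 forms, rose by 0.32 ± 0.06, YAF2 by 0.29 ± 0.07, WDR5 by 0.26 ± 0.06 and E2F6, a repressive E2F, by 0.22 ± 0.06 (log2, SE). With neighbours subtracted 1 of these, YAF2, was called, and PCGF6 read 0.17 (limma adjusted p = 0.113). Without control array 1, control array 2, myocilin array 1 or myocilin array 2 the count was 2. E2F6 (limma adjusted p = 0.0323) lost its call under 8 of 12 alternatives, quantile normalisation (0.0566) and omission of every array but control array 3 among them, and YAF2 (limma adjusted p = 0.0296) under 5 of 12. Of 15 MYC cofactors, such as TRRAP, the acetyltransferases and the RUVBL helicases, 1 rose, WDR5, which helps to anchor MYC on chromatin, and 0 fell. That is 6.67% higher, near the 8.28% of all genes, and this call too was lost with neighbours subtracted (0.12, adjusted p = 0.218). Genes that act on MYC or MYCN protein stability had 3 rises (20%) and 0 falls among 15, against 8.28% and 7.35% of all genes, with a median of -0.03. These were USP36, a nucleolar deubiquitinase that stabilises MYC, at 0.31 ± 0.07, the kinase gene PLK1 at 0.30 ± 0.07 and the ubiquitin ligase gene STUB1 at 0.29 ± 0.05 (log2, SE). PLK1 and STUB1 lie on chromosome 16, where 27.5% of genes rose, and with neighbours subtracted 0 of the 3 were called. The count was 1 without myocilin array 1, and USP36 lost its call under 5 of 12 alternatives, among them the median of its probe sets (limma adjusted p = 0.119). FBXW7, the ligase that marks phosphorylated MYC for destruction, named although the rule did not select it, differed by -0.06 and did not pass.

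Target genes were called in both directions. Of 24 measured targets in ribosome biogenesis, a classic MYC programme, 6 rose and 0 fell, 25% against 8.28% of all genes, with a median of 0.13. NIP7, needed for ribosomal RNA processing, rose by 0.43 ± 0.07, and the nucleolar methyltransferase gene NOP2 by 0.39 ± 0.07. MYBBP1A, a nucleolar regulator of ribosomal RNA synthesis, rose by 0.34 ± 0.05, and the RNA helicase gene DDX21 by 0.33 ± 0.06 (log2, SE, limma adjusted p = 0.00341 to 0.00688 for these 4). MYBBP1A read 0.31, 0.32 and 0.29 on the myocilin arrays, against -0.03, -0.07 and -0.003 on the control arrays. NOP2 read 0.16, 0.16 and 0.14 on the myocilin arrays, against -0.28, -0.33 and -0.09 on the control arrays. In both cases all myocilin arrays were higher than all control arrays and close to each other. NCL, the nucleolin gene and a standard MYC target, was not selected by the rule and read -0.06. NIP7 lies on chromosome 16 and DDX21 on chromosome 10, and 4 of the 6, including all 4 named, were still called with neighbours subtracted.

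The E-box was in promoter windows of 10 of the 24 ribosome biogenesis targets with a window in the table. It was in 10 of the 22 in growth and metabolism and 8 of the 20 in nucleotides, polyamines and translation. Among the 7 repressed by MYC it was in 0, too few genes to read as a difference. In the partner lists it was in 1 of 11 corepressor genes, 2 of 5 in the MLX branch and 2 of 10 in PRC1.6. It was in 3 of 10 cofactor genes and 4 of 13 in turnover. The target lists come from knowledge of MYC, so E-boxes in them were likely beforehand. Of all genes with a window, the motif was in 16.6% of the 1185 that rose and in 12% of the 1143 that fell. It was in 10.6% of the 12073 that did not pass, where genes with several start sites had several windows. These are descriptions of sequence and show no binding. Of the 4 named ribosome biogenesis genes, the windows of the 3 that held the motif, in capitals, are shown with that of TERT, the induced target in these lists with the largest rise. It begins 35 bases after the start site in NOP2, 27 after it in MYBBP1A, 31 before it in DDX21 and 163 before it in TERT:

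NOP2 (chr12:6568242-6568541, minus strand): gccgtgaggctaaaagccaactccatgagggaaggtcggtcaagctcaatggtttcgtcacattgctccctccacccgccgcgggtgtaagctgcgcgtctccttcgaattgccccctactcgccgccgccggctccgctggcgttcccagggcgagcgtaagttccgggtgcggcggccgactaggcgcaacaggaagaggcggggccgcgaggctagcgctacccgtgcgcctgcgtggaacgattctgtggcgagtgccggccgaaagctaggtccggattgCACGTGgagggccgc
MYBBP1A (chr17:4555335-4555634, minus strand): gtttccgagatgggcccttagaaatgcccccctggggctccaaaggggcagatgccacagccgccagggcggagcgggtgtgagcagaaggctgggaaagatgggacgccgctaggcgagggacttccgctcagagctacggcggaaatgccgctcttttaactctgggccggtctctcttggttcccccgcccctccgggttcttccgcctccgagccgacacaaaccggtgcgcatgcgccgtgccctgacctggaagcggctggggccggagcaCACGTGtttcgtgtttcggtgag
DDX21 (chr10:68956397-68956696, plus strand): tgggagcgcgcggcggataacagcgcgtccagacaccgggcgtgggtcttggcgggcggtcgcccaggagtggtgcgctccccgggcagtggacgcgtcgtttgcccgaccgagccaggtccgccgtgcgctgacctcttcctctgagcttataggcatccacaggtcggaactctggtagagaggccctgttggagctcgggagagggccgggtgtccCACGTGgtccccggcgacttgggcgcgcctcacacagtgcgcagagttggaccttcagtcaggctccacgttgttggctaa
TERT (chr5:1295019-1295318, minus strand): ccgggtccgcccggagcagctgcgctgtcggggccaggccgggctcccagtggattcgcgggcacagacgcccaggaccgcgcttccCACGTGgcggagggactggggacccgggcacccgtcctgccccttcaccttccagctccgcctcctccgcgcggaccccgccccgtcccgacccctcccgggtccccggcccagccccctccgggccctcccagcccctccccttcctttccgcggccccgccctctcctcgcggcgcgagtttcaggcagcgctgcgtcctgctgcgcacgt

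Targets in growth and metabolism had more falls than rises. Of 24 measured, 1 rose and 7 fell, 29.2% falling against 7.35% of all genes, with a median of -0.12. TERT, the catalytic subunit of telomerase, read 0.61, 0.49 and 0.51 on the myocilin arrays, against -0.22, -0.19 and -0.33 on the control arrays. Its groups were far apart, and it rose by 0.78 ± 0.06 (log2, SE, limma adjusted p = 0.000124), with 0.73 and 0.83 from its 2 probe sets. The 4 falls with the lowest p were SLC1A5, a glutamine transporter, at -0.37 ± 0.06, BCAT1, an aminotransferase of branched-chain amino acids, at -0.37 ± 0.06, CCND2, cyclin D2, at -0.30 ± 0.06, and TFRC, the transferrin receptor, at -0.30 ± 0.06 (log2, SE). SLC1A5 read 0, -0.02 and -0.05 on the myocilin arrays, against 0.27, 0.44 and 0.32 on the control arrays, without overlap. The 3 probe sets of CCND2 differed by -0.59 to -0.07, and 1 of them passed the threshold. The fall of TFRC depended on its probe sets, which differed from -0.55 to 0.04, and TFRC missed the threshold once its _x_at and _s_at probe sets were dropped (-0.19, limma adjusted p = 0.114). Without myocilin array 2 the list had 5 calls in place of 8.

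Of 21 measured targets in nucleotide and polyamine synthesis and in translation, 1 rose and 1 fell, 4.76% each way and near the 8.28% and 7.35% of all genes, with a median of -0.01. TYMS, thymidylate synthase, fell by 0.39 on the log2 scale with a standard error of 0.06, and lies on chromosome 18, where 48.2% of genes fell. With neighbours subtracted it fell by 0.24 (limma adjusted p = 0.0291). IMPDH1, an enzyme of guanine nucleotide synthesis, rose by 0.19 ± 0.05 (limma adjusted p = 0.0401), a call lost when any 1 array was left out. ODC1, the polyamine enzyme and a textbook MYC target, was not selected by the rule and read 0.10 (limma adjusted p = 0.248).

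Of 12 measured genes listed as repressed by MYC, 3 rose (25%) and 2 fell (16.7%), against 8.28% and 7.35% of all genes, with a median of -0.04. NDRG1, a stress- and hypoxia-responsive gene, read 1.10, 1.14 and 0.88 on the myocilin arrays, against 0.28, 0 and 0.29 on the control arrays, and rose by 0.85 ± 0.10 (log2, SE, limma adjusted p = 0.000785). The CDK inhibitor gene CDKN1C rose by 0.36 ± 0.06 and the cyclin gene CCND1 by 0.25 ± 0.07. CDKN1B, which encodes the CDK inhibitor p27, fell by 0.43 with a standard error of 0.10, and NDRG2, a relative of NDRG1, by 0.27 with a standard error of 0.07. CDKN1C kept its call under all 12 alternatives. Its 5 probe sets differed by 0.07 to 0.60, 3 of them past the threshold. NDRG1, read by 1 probe set, kept its call under all 11 alternatives run. CCND1 (limma adjusted p = 0.0319) lost it under 8 of 12, including quantile normalisation (0.0512) and omission of every array but control array 3, NDRG2 under 5 of 11 and CDKN1B under 4 of 12. CDKN1A, the p21 gene, was not selected by the rule and read 0.11 (limma adjusted p = 0.202). The list had 2 calls in place of 5 without control array 1, control array 2, myocilin array 1 or myocilin array 3, and 3 with neighbours subtracted.

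**Figure D4:**
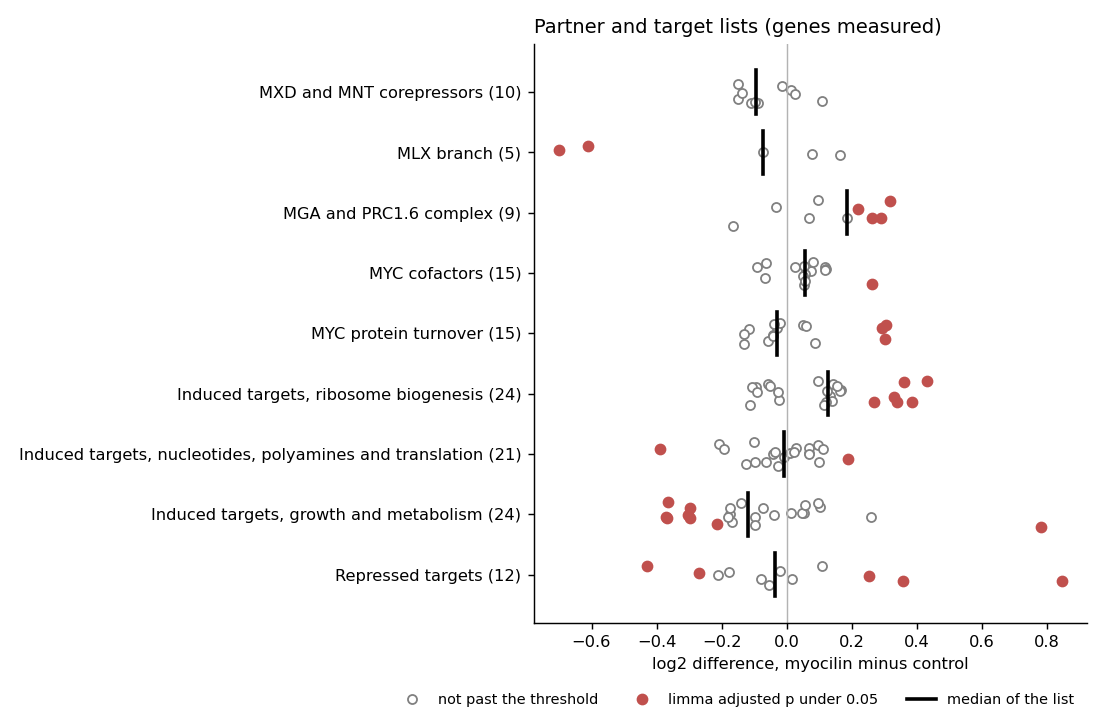
Log2 difference, myocilin minus control, of each measured gene (points) in the lists of partners and targets, with the number measured in parentheses and the list median as a black bar; filled points passed the limma threshold over all genes. Filled points lie to the right of 0 for ribosome biogenesis and mainly to the left for growth and metabolism, where TERT at 0.78 is the exception.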

How the data were processed

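RNA from 3 arrays per line was measured on Affymetrix HG-U133 Plus 2.0. The deposited table holds log2 values, each array with a median of 0; the log base and the centring of each probe set are inferred from the values, and an exact 0 occurs on 1 array or more in 57.3% of probe sets. How the authors corrected background, summarised probes and normalised is not given in the sources used. Probe sets were named by the platform annotation, 37460 with 1 gene, and symbols and chromosomes were updated through Entrez identifiers in RefSeq (GRCh38.p14). A gene's value is the mean of its probe sets. Lines were compared with limma 3.58.1 (lmFit, eBayes, two-sided) in R 4.3.3 on all probe sets and on all genes, with Benjamini-Hochberg adjustment over each whole table; "rose" and "fell" mean an adjusted p under 0.05, and differences are myocilin minus control. The fits were also run on simulated data with independent noise and planted changes. That run does not bear on technical replicates or on genes that change together along a chromosome. Precision is limited by 3 arrays per line; no filter on dim probe sets could be made.

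The members and the 9 lists were chosen with earlier results of these data known; the lists come from general knowledge of MYC biology, so no list was tested. List genes without a probe set of their own are not analysed here. Genes named are the members, MYOC, up to 4 genes per list and direction by p, the 5 genes most like MYC and changed neighbours; others are marked. Of the changed neighbours of MXI1 the 3 with the largest differences are named, chosen after their values were seen, as were PVT1 and CASC11. Alternatives were quantile normalisation, array weights, eBayes with a trend and robust variances, the median of probe sets, omission of _x_at and _s_at probe sets, each array left out and, added after seeing the data, neighbours subtracted.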

Additional observations from a re-analysis of the deposited data

How the results depend on the processing

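No paired analysis was run, because nothing in the labels pairs a myocilin sample with a control sample. MYC kept its call under all alternatives run, at 0.60 to 0.75 with 1 array left out and 0.63 to 0.67 under the others; its only probe set ends in _s_at, so it has no value when the _x_at and _s_at probe sets are omitted. MXI1 was called under all alternatives, at 0.46 to 0.61. With these omitted, fewer features are tested: 1 member gene, 2 member probe sets, 18 list genes (30 in the main analysis), 1878 genes (2866) and 2695 probe sets (4603) were called. With 1 array left out, 2 member genes, 2 to 3 member probe sets, 18 to 28 list genes, 1613 to 2220 genes and 2281 to 3283 probe sets were called. By list, the calls with _x_at and _s_at probe sets omitted were 1 in the MLX branch, where TXNIP has none left, and 2 in PRC1.6. They were 4 in ribosome biogenesis, 1 in nucleotides and translation and 5 in growth and metabolism. Repressed targets had 3, turnover 2, cofactors 1 and corepressors 0. With neighbours subtracted the calls were 2 in the MLX branch, 1 in PRC1.6, 0 among cofactors, 0 in turnover and 0 among corepressors. They were 4 in ribosome biogenesis, 2 in nucleotides and translation, 9 in growth and metabolism and 3 among repressed targets. Quantile normalisation, and trend with robust variances, each left 1 in nucleotides and translation. With 1 array left out the calls numbered 2 to 4 in PRC1.6, 1 to 3 in turnover, 4 to 6 in ribosome biogenesis, 1 to 2 in nucleotides and translation, 5 to 7 in growth and metabolism and 2 to 5 among repressed targets.

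No value that turned in sign was past the threshold under that alternative. Without _x_at and _s_at probe sets MYCN read 0.0627, MAX 0.145 and MGA -0.0011, and the neighbour MTSS1, called in the main analysis, read -0.041. With 1 array left out, MYCN ranged from -0.0539 to 0.0596, MXD1 from -0.0359 to 0.0154, PVT1 from -0.0615 to 0.1047 and CASC11 from -0.0165 to 0.1002. With neighbours subtracted MXD1 read 0.0126 and PVT1 -0.0301, and PVT1 read -0.0062 under quantile normalisation. The cause was not tested. Of 649 values of 56 single genes and probe sets under alternatives, 568 kept their direction and side of the threshold, 65 lost the call, 1 gained it and 15 turned in sign. These include genes not called in the main analysis, such as MYCN, NCL and ODC1, which had no call to lose. MXI1 enters both as a gene and as its only probe set. The total therefore does not measure how stable the calls were. The planned filter on dim probe sets was not run and depth is unknown, since the table holds neither intensities nor detection calls.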
